A study of Drosophila melanogaster with 9 samples.

Results

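The tricarboxylic acid (TCA) cycle enzyme genes described here were 10 of the 17490 genes in the expression table of a study on *Drosophila melanogaster* blood cells. They were taken from the table by name, from a list drawn up with earlier results of these data known. For 9 of them the symbol in the table was that of the list, and *Pcb* was found under its other spelling, *PCB*. RNA sequencing had been performed on 3 groups of *w1118* animals with 3 biological replicates in each, and no treatment or transgene separated the groups. Adult hemocytes (AD) were flushed with PBS from females 4 to 5 days old, larval peripheral hemocytes (PH) were bled from late (L3) larvae through a tear in the cuticle, and larval lymph glands (LG) were the dissected anterior lobes of that hematopoietic organ at the same larval stage. A figure legend of the study names *w1118* females for all 3 groups. Each sample pooled many animals and no cell sorting was described, so each value is an average over all cell types in the sample. In such bulk samples, fewer cells of a type and less RNA per cell cannot be told apart. The study did examine its bleeds by microscopy. It reported that nearly all cells from adults aged 5 days carried a reporter of the hemocyte gene *srp*. It also reported that most retrieved cells carried a *Pxn* reporter, and that no fat body cells were seen among them. These checks were made on reporter animals, not on the sequenced samples.

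The TCA cycle runs in mitochondria, where acetyl-CoA is joined to oxaloacetate and oxidized stepwise to carbon dioxide, with the electrons passed as NADH and FADH2 to the respiratory chain. Pyruvate enters it as acetyl-CoA through pyruvate dehydrogenase, or as oxaloacetate through pyruvate carboxylase, a reaction that refills the cycle when intermediates are drawn off for biosynthesis. Hemocytes are the macrophage-like, crystal and lamellocyte cells of insect immunity, and the lymph gland holds their progenitors together with maturing cells.

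Expression was given as RPKM (read density over the exons of a gene, scaled between libraries by the size factors described under processing), a level per length that can be compared between genes. From 2745573 reads (LG replicate 2) to 6779942 reads (LG replicate 3) per sample were recovered from the RPKM values and the exon lengths, and rRNA genes took 43.0 to 61.5% of them. These are reads assigned to genes, fewer than the mapped reads per sample named in the study, and the cause of that gap was not tested. The 10 genes of the plasmatocyte and general hemocyte list had an RPKM above 1 in all 9 samples, as did the 3 crystal cell markers, but their levels differed between the groups. The hemocyte list summed to 6015 to 6969 RPKM in AD, to 2198 to 3445 in PH and to 2565 to 2660 in LG, with 4 of its genes called higher in AD and 1 lower against PH, and 6 higher against LG. For these and the following marker counts, calls use the thresholds given below for the TCA cycle genes. Of all genes tested, 23.0% were called higher in AD and 13.9% lower against PH, and 20.0% and 10.4% against LG. The crystal cell markers summed to 1535 to 1647, 1506 to 2185 and 413 to 1021. Markers of other tissues, except those of the gut, differed as well. The summed RPKM of 15 muscle genes was 918 to 938 in the AD samples, 36.4 to 69.7 in those of PH and 281 to 339 in those of LG, with *fln* and *TpnC41C* listed at 0 in all PH samples and *fln* and *TpnC4* at 0 in all LG samples. Of the muscle genes tested, 10 of 13 were called higher in AD than in PH, and 7 of 12 higher and *Act57B* lower (mean RPKM 31.2 against 114) in AD than in LG, while *Act87E* (15.7 against 23.3) and *sls* (2.82 against 4.0) also had lower means in AD than in LG. The sum of 5 adult fat body genes was 7505 to 11878 in the AD samples. It was 2.87 to 8.74 in those of PH and 1.15 to 32.8 in those of LG. Of these genes, *to* was at 0 in every larval sample and in AD replicates 2 and 3. In AD replicate 1 it had an RPKM of 0.264, from 1 read. The sum of 6 larval fat body genes, none of them at 0 throughout a group, was 9.04 to 18.4 in the AD samples, 1430 to 1996 in those of PH and 108 to 175 in those of LG. Ovary genes (7) summed to 2.79 to 25.0 in AD and to at most 0.949 in a larval sample, and gut genes (8) to at most 6.53 in AD, 8.43 in LG and 24.4 in PH. The hemocyte, muscle, fat body and ovary sums of AD did not overlap those of the larval samples, nor did the TCA cycle sums. The crystal cell sums of AD and PH overlapped, as did the gut sums of all groups. The part of other tissues or of the hemocyte content in the results that follow was not tested.

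**Figure D1:**
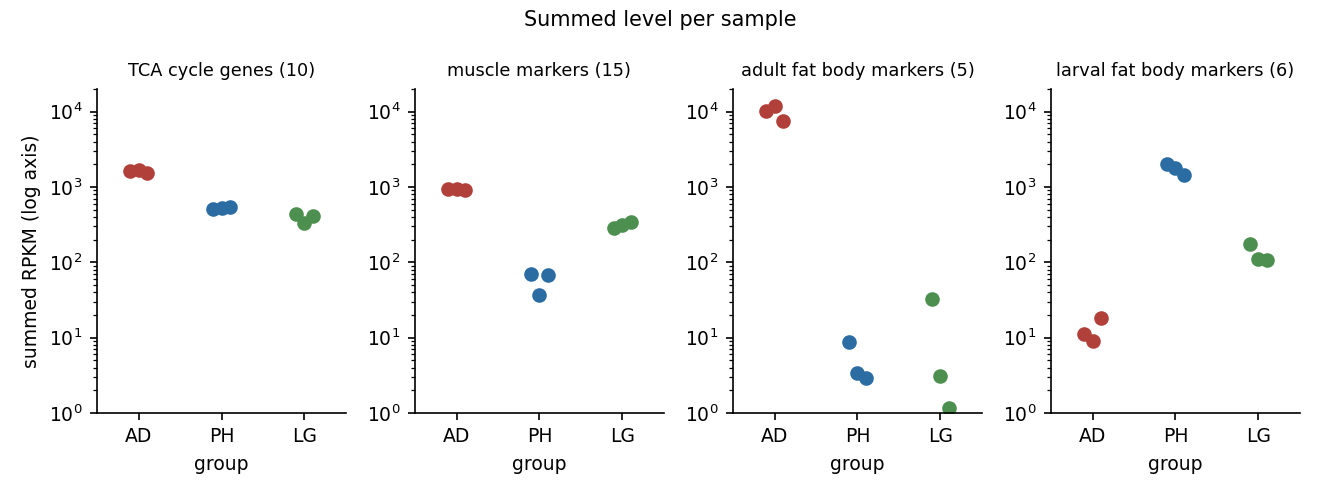
Summed RPKM (log axis) of the 10 TCA cycle genes and of the muscle, adult fat body and larval fat body markers, with 1 point per sample in AD, PH and LG. The TCA cycle genes summed to 1540 to 1669 in the AD samples, 511 to 544 in those of PH and 335 to 437 in those of LG, while the sums of muscle and adult fat body markers were also highest in AD and that of larval fat body markers was highest in PH.

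Most of the TCA cycle genes were expressed at higher levels in adult hemocytes than in either larval sample. The 10 genes together summed to 1540 to 1669 RPKM in the AD samples, 511 to 544 in those of PH and 335 to 437 in those of LG, so the 3 groups did not overlap. Against PH, 8 of the 10 rose in AD and none was called lower, with differences called at an adjusted p below 0.01 and a log2 fold change beyond 1 (limma on log2(RPKM + 1), Benjamini-Hochberg over all genes tested). *Idh* was the only member lower in AD at an unadjusted p below 0.05, and voom on recovered reads also called 8 higher and 0 lower. The background was high, since 23.0% of the 7692 genes tested were called higher in AD than in PH and 13.9% lower. Against LG, 9 of the 10 rose, where 20.0% of 7748 genes were called higher and 10.4% lower, with no member lower in AD at an unadjusted p below 0.05 or with voom. Over the 10 genes, the log2 fold change had a median of 1.93 in the comparison with PH and 2.01 in that with LG, where the medians of all genes tested were 0.05 and 0.07. Both comparisons use the same 3 AD samples and are not independent of each other.

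The direction of the background depended on the scaling between samples. Of the genes called between AD and PH, 62.3% were higher in AD with the deposited values and 49.6% after quantile normalization. The share was 66.6% with the total of recovered reads and 55.5% with the reads outside rRNA genes. Between AD and LG, this share was 65.9% with the deposited values, 50.2% after quantile normalization, 52.4% with the total of recovered reads and 47.8% with the reads outside rRNA genes. Under these 3 scalings, 7 to 8 members were called against PH and 8 against LG.

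**Figure D2:**
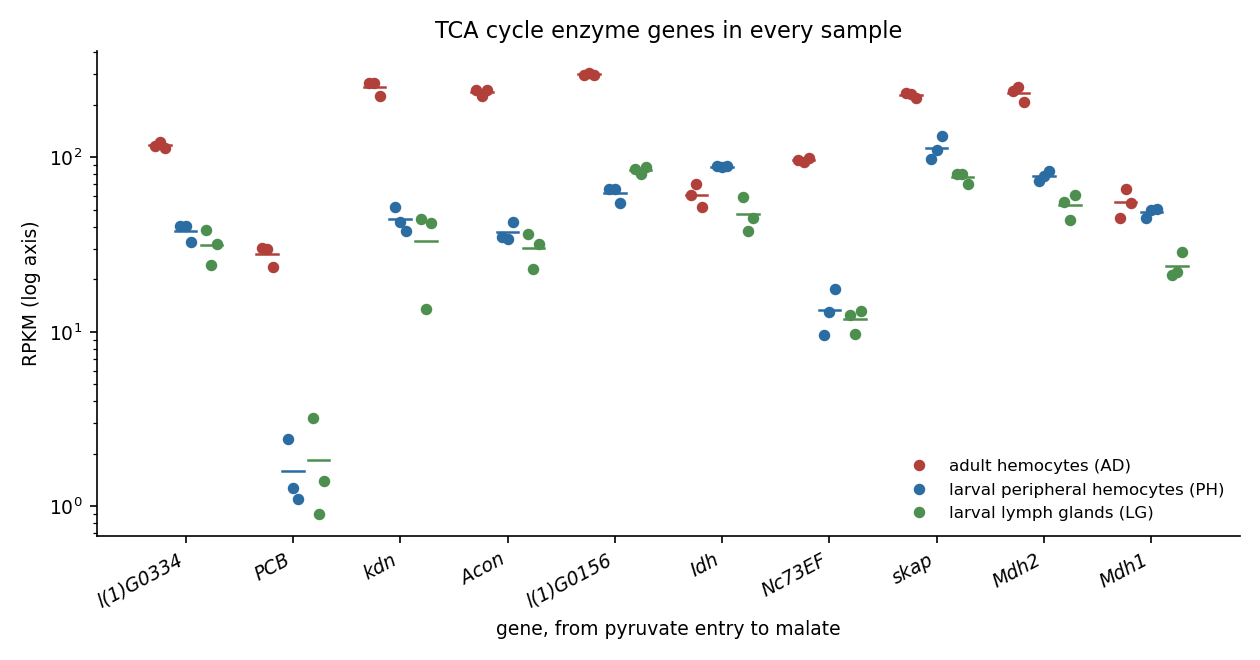
RPKM (log axis) of the 10 TCA cycle enzyme genes, ordered from pyruvate entry to malate, with 1 point per sample and a line at each group mean. All AD points lie above all larval points for 8 genes, whereas *Idh* and *Mdh1* in AD overlap a larval group.

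The genes that bring pyruvate into the cycle were both higher in AD. *l(1)G0334* (X:4702284-4705265, plus strand; these and the following positions are those of the gene in the Ensembl annotation BDGP6.54) encodes the E1 alpha subunit of pyruvate dehydrogenase. Its RPKM was 116, 123 and 114 in the AD samples, 40.7, 40.7 and 32.8 in those of PH and 38.3, 24.1 and 31.8 in those of LG. Every adult sample was above every larval sample, and PH and LG overlapped. AD exceeded PH by 1.61 ± 0.12 (SE) and LG by 1.90 ± 0.18 on the log2 scale (limma, Benjamini-Hochberg adjusted p = 9.7e-06 and 1.1e-04).

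*PCB* (arm 2R) encodes pyruvate carboxylase, and it had the lowest mean level of the 10 genes in all groups. Its RPKM was 30.2, 29.8 and 23.7 in the AD samples, 2.42, 1.27 and 1.10 in those of PH and 3.22, 0.905 and 1.40 in those of LG. The larval values rest on few reads, from 13 in LG replicate 2 to 91 in LG replicate 1, against 371 to 432 in the adult samples. *PCB* shares 93 bp of exon with *CR44293* on the other strand. The mean RPKM of *CR44293* was 0.502 in the AD samples, 0.432 in those of PH and 0 in those of LG. Its part in the low larval values of *PCB* was not tested. Mean RPKM was 17.5 times higher in AD than in PH and 15.1 times higher than in LG. The log2 fold changes of 3.50 ± 0.23 and 3.42 ± 0.31 (limma, adjusted p = 5.1e-06 and 8.4e-05) lie below the logarithms of these ratios, since the pseudocount of 1 is added to values of similar size. With a pseudocount of 5 and of 0.1 they became 2.32 and 4.12 for PH, and 2.27 and 4.02 for LG. As reported these were the largest adult differences among the members, whereas with a pseudocount of 5 those of *Acon*, *Nc73EF* and *kdn* were larger in both comparisons.

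The genes for the enzymes that make and rearrange citrate were also higher in AD than in both larval groups. *kdn* (X:6350629-6361323, plus strand) encodes citrate synthase, which carries out the entry reaction of the cycle. Its RPKM was 269, 269 and 226 in the AD samples, 52.0, 42.7 and 37.9 in those of PH and 44.1, 13.5 and 42.2 in those of LG. The adult samples stood above all larval samples, and LG replicate 2, the sample with the fewest recovered reads, was far below the other lymph gland samples. The adult rise on the log2 scale was 2.51 ± 0.14 over PH (limma, adjusted p = 2.1e-06) and 3.06 ± 0.41 over LG (adjusted p = 6.0e-04), the latter being 2.53 without LG replicate 2.

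*Acon* (2L:21168570-21173185, plus strand) encodes the mitochondrial aconitase, which turns citrate into isocitrate. Its RPKM was 244, 226 and 245 in the AD samples, 34.8, 34.0 and 42.8 in those of PH and 36.3, 22.9 and 32.1 in those of LG. The adult values lay far above the larval ones and varied little, with a coefficient of variation of 4.49%. On the log2 scale AD was 2.65 ± 0.12 above PH and 2.95 ± 0.18 above LG (limma, adjusted p = 7.4e-07 and 1.5e-05). *Acon* shares 12 bp of exon each with *CG43345* and *CG43346* on the other strand, both with a mean RPKM of 0 in every group.

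Of the isocitrate dehydrogenase genes, *l(1)G0156* was called higher in AD in both comparisons and *Idh* in neither. *l(1)G0156* (X:19518428-19521810, minus strand) encodes the alpha subunit of the NAD-dependent mitochondrial enzyme, the form that works in the cycle. Its RPKM was 299, 306 and 299 in the AD samples, 66.3, 65.5 and 55.2 in those of PH and 85.9, 80.0 and 88.3 in those of LG. It was the member with the highest mean level in AD, and its 3 groups were fully apart, with PH lowest. In log2 units, the adult level exceeded that of PH by 2.26 ± 0.11 and that of LG by 1.82 ± 0.11 (limma, adjusted p = 9.6e-07 and 1.5e-05).

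*Idh* (3L:8356404-8360906, minus strand) encodes the NADP-dependent isocitrate dehydrogenase, which supplies NADPH outside the main path of the cycle. Its RPKM was 61.2, 70.1 and 51.8 in the AD samples, 88.9, 87.9 and 89.5 in those of PH and 59.1, 37.8 and 44.8 in those of LG. All PH samples were above all AD samples, whereas AD and LG overlapped. With a log2 fold change of -0.54 ± 0.13 against PH (limma, adjusted p = 0.0064) it stayed short of the fold change required, and against LG it gave 0.38 ± 0.20 (adjusted p = 0.16). *Idh* was the only member whose AD samples were all below the PH samples, a state found in 30.1% of all genes tested, while 8 members had all AD samples above all PH samples, against 35.3% of all genes. Against LG, 9 members had all AD samples higher, against 32.6% of all genes, and none had all AD samples lower, against 25.7%.

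The dehydrogenase that oxidizes 2-oxoglutarate to succinyl-CoA is represented by *Nc73EF* (3L:16954822-16968724, plus strand), which encodes its E1 subunit. Its RPKM was 96.8, 93.9 and 99.5 in the AD samples, 9.58, 13.0 and 17.6 in those of PH and 12.5, 9.71 and 13.2 in those of LG. The adult samples were far above all larval samples, and PH and LG overlapped. AD against PH amounted to a log2 fold change of 2.80 ± 0.20, with 2.94 ± 0.16 for AD against LG (limma, adjusted p = 6.4e-06 and 8.3e-06). Exons of *Nc73EF* share 294 bp with *Cpr73D* on the other strand and 63 bp with *Obp73a* on the same strand, and both of these genes had a mean RPKM below 1 in every group.

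*skap* (3R:8938724-8943027, plus strand) encodes the beta subunit of the ADP-forming succinyl-CoA synthetase, the step of the cycle that yields a nucleoside triphosphate directly. Its RPKM was 234, 231 and 220 in the AD samples, 98.2, 110 and 132 in those of PH and 80.9, 80.3 and 70.7 in those of LG. The groups were fully apart, in the order AD, PH and LG. AD against PH gave a log2 fold change of 1.01 ± 0.13 (limma, adjusted p = 1.8e-04), just past the limit of 1, and AD against LG gave 1.55 ± 0.12 (adjusted p = 4.2e-05). The call against PH was lost in 5 of 17 alternatives, in which the value fell as low as 0.87 (scaling to reads outside rRNA genes). *skap* shares 74 bp of exon with *CG11964* on the other strand, whose mean RPKM was 10.3 in the AD samples, 19.6 in those of PH and 16.5 in those of LG, and whether counting used the strand is not given in the sources used here.

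Of the malate dehydrogenase genes, *Mdh2* was called higher in AD in both comparisons and *Mdh1* against LG only. *Mdh2* (3R:18226396-18228718, plus strand) encodes the mitochondrial enzyme, which regenerates oxaloacetate. Its RPKM was 239.1, 254.7 and 207.1 in the AD samples, 72.9, 78.0 and 83.7 in those of PH and 55.4, 43.8 and 60.9 in those of LG. The groups did not overlap, with AD highest and LG lowest. The adult level was higher by 1.56 ± 0.12 than that of PH and by 2.12 ± 0.16 than that of LG, on the log2 scale (limma, adjusted p = 8.9e-06 and 4.0e-05).

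*Mdh1* (2L:10393774-10396332, minus strand) encodes the cytosolic enzyme, a part of the malate-aspartate shuttle that carries reducing equivalents between cytosol and mitochondria. Its RPKM was 45.2, 65.9 and 55.1 in the AD samples, 44.9, 49.8 and 50.8 in those of PH and 21.1, 22.0 and 28.7 in those of LG. AD and PH overlapped and both lay above LG. AD against PH gave a log2 fold change of 0.17 ± 0.15 (limma, adjusted p = 0.35), and AD against LG gave 1.18 ± 0.19 (adjusted p = 0.0017). The call against LG was lost in 4 of 17 alternatives, with values from 0.83 to 0.95.

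**Figure D3:**
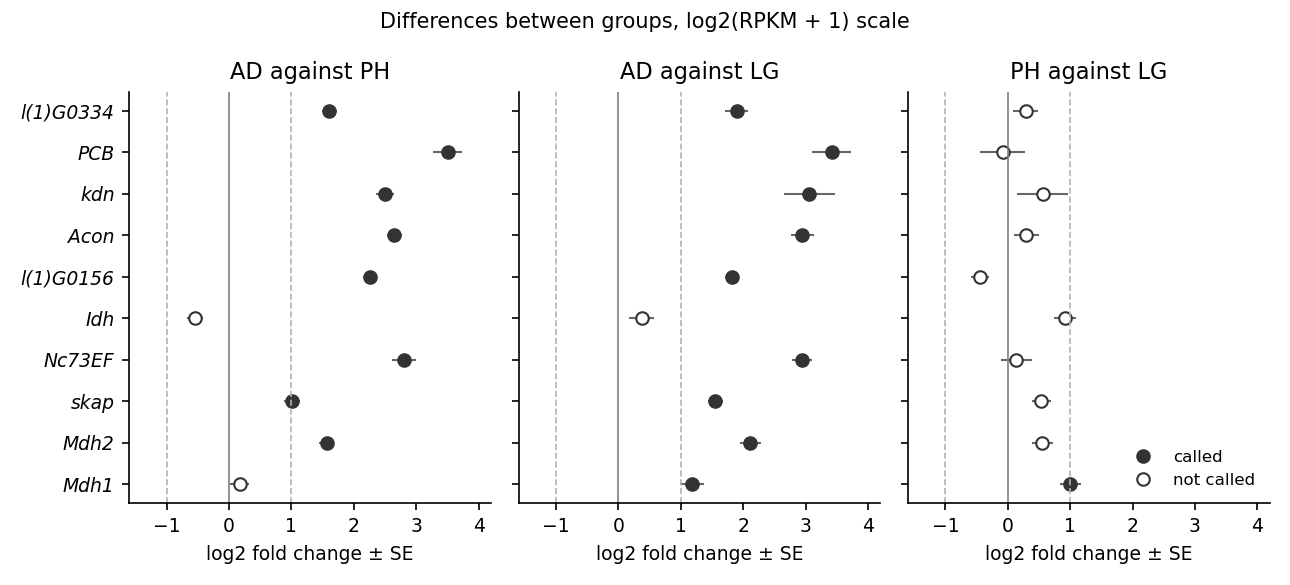
Log2 fold change ± SE on the log2(RPKM + 1) scale (limma) of the 10 genes for AD against PH, AD against LG and PH against LG, with filled points for called genes and dashed lines at -1 and 1. Called genes number 8, 9 and 1, and *Idh* is open in all 3 panels.

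Between the larval groups, 1 of the 10 members was called, near the share of all genes tested. *Mdh1* was the only member called, with a log2 fold change of 1.0 ± 0.17 in PH against LG (limma, adjusted p = 0.0035), and none was called lower in PH, where 7.63% of 7088 genes were called higher and 6.57% lower. This call lay at the limit of the required fold change. It was lost in 11 of 17 alternatives, among them voom on recovered reads, which called 0 members, and the fits without any single sample other than LG replicate 3. *Idh* gave 0.92 ± 0.18 (adjusted p = 0.0069) and passed the fold change only without LG replicate 1, with a value of 1.09.

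Over the 10 genes, PH against LG had a median log2 fold change of 0.42, where all genes tested had 0.01. In 4 genes (*Idh*, *skap*, *Mdh1* and *Mdh2*) all PH samples were above all LG samples, against 24.7% of all genes, and in *l(1)G0156* all were below, against 23.1%. *skap* gave 0.54 ± 0.16, *Mdh2* 0.55 ± 0.16 and *l(1)G0156* -0.44 ± 0.14 (limma, adjusted p = 0.032, 0.035 and 0.046), none of which passed the threshold. For the remaining genes, *kdn* (0.56 ± 0.41), *Acon* (0.30 ± 0.20), *Nc73EF* (0.14 ± 0.24), *PCB* (-0.08 ± 0.37) and *l(1)G0334* (0.29 ± 0.20), PH and LG overlapped. The value of *kdn* was 0.02 without LG replicate 2. Muscle markers, by contrast, were called lower in PH than in LG in 10 of the 11 tested, against 6.57% of all genes. Larval fat body markers were called higher in 6 of 6, against 7.63% of all genes. The part of either in the values of the members was not tested. The scaling mattered here as well, since 53.7% of all genes called were higher in PH with the deposited values, 30.4% with the total of recovered reads and 38.2% with the reads outside rRNA genes.

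The order of the members by level was rearranged between the stages. In AD, *l(1)G0156* (mean RPKM 301 ± 4.01, SD, n = 3) was followed by *kdn* (254 ± 25.1), *Acon* (238 ± 10.7), *Mdh2* (234 ± 24.2) and *skap* (228 ± 7.41). These last 4 could not be ordered beyond their spread, since each overlapped the next, and *l(1)G0334*, *Nc73EF*, *Idh*, *Mdh1* and *PCB* came after them, with only *Idh* and *Mdh1* overlapping. In PH, *skap* came at the top (114 ± 17.2), then *Idh* (88.8 ± 0.847), *Mdh2* (78.2 ± 5.37) and *l(1)G0156* (62.3 ± 6.21), each apart from the next, while *Mdh1*, *kdn*, *l(1)G0334* and *Acon* formed a run in which neighbours overlapped. In LG, *l(1)G0156* (84.7 ± 4.29) and *skap* (77.3 ± 5.69) overlapped at the top, the 6 genes from *Mdh2* to *Mdh1* formed a run of overlapping neighbours, and *Nc73EF* and *PCB* were last, as in PH.

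Expressed as shares of the summed RPKM of the 10 genes, *Idh* made up 3.78% in the AD samples, 16.9% in those of PH and 12.0% in those of LG. *Mdh1* made up 3.43%, 9.22% and 6.05%, and *kdn* 15.8%, 8.41% and 8.42%. Among all 17490 genes ranked by mean RPKM, *kdn* stood at place 163 in the AD samples, 812 in those of PH and 922 in those of LG, and *PCB* at place 1329, 6397 and 6414. *Idh*, at place 641, 453 and 642, was the member whose place shifted least between AD and LG. The variation between replicates was largest for *PCB* (coefficient of variation 45.3% in PH and 66.1% in LG) and for *kdn* in LG (51.6%), and smallest for *Idh* in PH (0.955%) and *l(1)G0156* in AD (1.33%).

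Ratios between genes of the same sample do not depend on the scaling between samples, and 3 pairs with related reactions were compared in this way. The ratio of mitochondrial to cytosolic malate dehydrogenase (*Mdh2* to *Mdh1*) was 5.29, 3.86 and 3.76 in the AD samples, 1.62, 1.57 and 1.65 in those of PH and 2.63, 1.99 and 2.12 in those of LG. The ratio of NAD-dependent to NADP-dependent isocitrate dehydrogenase (*l(1)G0156* to *Idh*) was 4.88, 4.36 and 5.77 in the AD samples, 0.746, 0.746 and 0.616 in those of PH and 1.45, 2.11 and 1.97 in those of LG. In both ratios the 3 groups were fully apart, in the order AD, LG and PH, and in PH the *Idh* level exceeded that of *l(1)G0156* in every sample.

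The ratio of pyruvate dehydrogenase E1 alpha to pyruvate carboxylase (*l(1)G0334* to *PCB*) went the other way. It was 3.84, 4.13 and 4.82 in the AD samples, 16.8, 32.2 and 29.96 in those of PH and 11.9, 26.6 and 22.7 in those of LG. All adult values were below all larval values, and PH and LG overlapped. Between AD and PH, the log2 difference was 1.40 for *Mdh2* to *Mdh1*, 2.83 for *l(1)G0156* to *Idh* and -2.58 for *l(1)G0334* to *PCB*, and between AD and LG it was 0.93, 1.45 and -2.18. With a pseudocount of 1, the *l(1)G0334* to *PCB* differences were -1.90 (AD and PH) and -1.52 (AD and LG). Each of these 6 differences, and those of the dehydrogenase ratios between PH and LG (-0.47 and -1.38), had an exact two-sided permutation p of 0.10, the smallest that 3 against 3 samples allow, with 0.1125 after Benjamini-Hochberg adjustment over the 9 tests. The difference of *l(1)G0334* to *PCB* between PH and LG was 0.39, with an exact permutation p of 0.50.

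**Figure D4:**
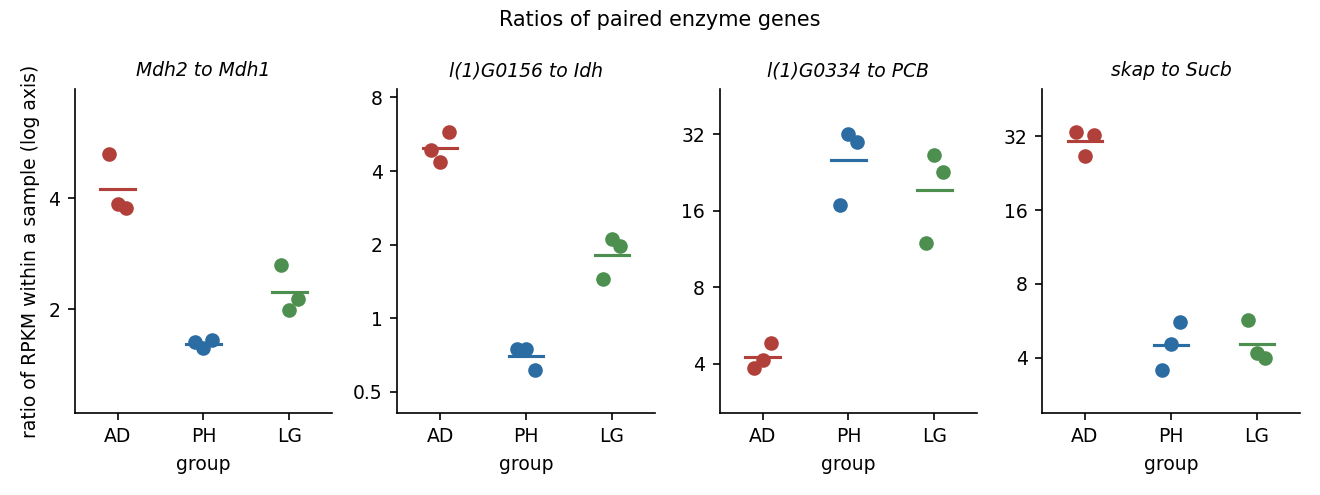
Within-sample ratios of RPKM (log axis), with 1 point per sample and a line at the geometric mean of AD, PH and LG. *Mdh2* to *Mdh1* has geometric means of 4.25, 1.61 and 2.23, *l(1)G0156* to *Idh* 4.97, 0.70 and 1.82, *l(1)G0334* to *PCB* 4.24, 25.3 and 19.3, and *skap* to *Sucb* 30.6, 4.51 and 4.56.

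The rest of the cycle was followed in 14 further genes for subunits of the TCA cycle enzymes and of the pyruvate dehydrogenase complex with its regulators (15 were listed). In AD against PH, 7 of the 14 rose and 1 fell (median log2 fold change 1.02). Of all genes tested in that pair, 23.0% were called higher and 13.9% lower. Against LG, 9 rose and 1 fell (median 1.32), where 20.0% of all genes were called higher and 10.4% lower. The 3 called genes with the largest difference against PH were *SdhB* (2.60 ± 0.22) and *SdhA* (2.52 ± 0.11), for catalytic subunits of succinate dehydrogenase, and *CG6439* (2.14 ± 0.13), for the beta subunit of the NAD-dependent isocitrate dehydrogenase (limma, adjusted p = 1.7e-05, 6.5e-07 and 3.5e-06). *SdhC* and *SdhD*, the membrane anchors, named after their values had been seen, were also called, so all 4 subunits of succinate dehydrogenase were higher in AD than in either larval group. Other steps, also named after the values had been seen, were not called in AD against either group. The fumarase gene *l(1)G0255* gave -0.13 ± 0.13 against PH and 0.29 ± 0.15 against LG. *CG5214*, for the E2 subunit of 2-oxoglutarate dehydrogenase, gave 0.65 ± 0.17 and 1.17 ± 0.38. The gene called lower in AD was *Sucb*, which encodes the beta subunit of the GDP-forming succinyl-CoA synthetase, the counterpart of *skap*. Its mean RPKM was 7.51 ± 1.03 in the AD samples, 25.1 ± 2.08 in those of PH and 17.1 ± 2.55 in those of LG (SD, n = 3), with a log2 fold change of -1.62 for AD against PH and -1.08 for AD against LG.

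Since *skap* rose and *Sucb* fell, their ratio was computed, a choice made after the values had been seen and therefore not tested. It was 33.2, 26.6 and 32.3 in the AD samples, 3.58, 4.56 and 5.61 in those of PH and 5.68, 4.18 and 3.98 in those of LG. All adult values were above all larval ones, and PH and LG overlapped. *Scsalpha*, the alpha subunit with which both beta subunits pair, also named after the values had been seen, had a mean RPKM of 81.2 in the AD samples, 72.8 in those of PH and 49.6 in those of LG and was called in no pair. Between PH and LG, limma called 0 of the 14 genes, where 7.63% of all genes were called higher and 6.57% lower. At an unadjusted p below 0.05 (limma), 5 were higher in PH, and voom called 0 of the 13 genes with recovered reads.

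Of 16 genes listed as mostly testis-expressed copies or relatives of the enzymes, 13 were at 0 in all AD samples, and 1, *CG1544*, was high enough to be tested. Whether *CG1544* acts in the cycle was not tested. The mean RPKM of *CG1544* was 3.59 in the AD samples, 14.2 in those of PH and 6.17 in those of LG, with a log2 fold change of -1.71 (AD against PH, called) and -0.62 (AD against LG, not called). Together the 16 genes summed to at most 5.20 RPKM in the AD samples, 18.6 in those of PH and 8.41 in those of LG. These sums were far below those of the 10 members. Single members were closer, since the mean of *CG1544* was above that of *PCB* in PH (1.59) and LG (1.84). It was near that of *Nc73EF* in PH (13.4) and below it in LG (11.8). In AD it was below both (27.9 for *PCB* and 96.7 for *Nc73EF*).

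A list of genes around the cycle, for carbon exchange, shuttles and iron regulatory proteins, was tested in 11 of 13 cases. Against PH, 6 rose in AD and 2 fell (median 2.04), and against LG 7 rose (6 with voom) and 1 fell (median 1.74), where 23.0% of all genes were called higher and 13.9% lower against PH, and 20.0% and 10.4% against LG. The largest difference on the log2(RPKM + 1) scale was that of *Gpo-1*, which encodes the mitochondrial glycerol-3-phosphate dehydrogenase of the glycerophosphate shuttle, with a mean RPKM of 54.0 in the AD samples, 0.282 in those of PH and 1.47 in those of LG (log2 fold change 5.44 ± 0.21 against PH). Its PH values rest on 10, 5 and 0 recovered reads and lie below the pseudocount of 1, so this fold change depends on the pseudocount. *Mpc1*, a subunit of the mitochondrial pyruvate carrier, had 159, 13.6 and 16.3 (3.46 ± 0.14). *Gdh*, which encodes the glutamate dehydrogenase that feeds glutamate into the cycle as 2-oxoglutarate, went the opposite way, with a mean RPKM of 20.8 ± 3.32 in the AD samples, 235 ± 20.7 in those of PH and 62.1 ± 16.4 in those of LG. It gave -3.44 ± 0.14 against PH and -1.51 ± 0.22 against LG (limma, both called), and 1.93 ± 0.20 in PH against LG, also called. *Irp-1A*, an iron regulatory protein related to aconitase, was at 4.32 in the AD samples, 23.2 in those of PH and 8.21 in those of LG, with -2.22 against PH (called) and -0.76 against LG (not called), and 1.46 in PH against LG (called).

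**Figure D5:**
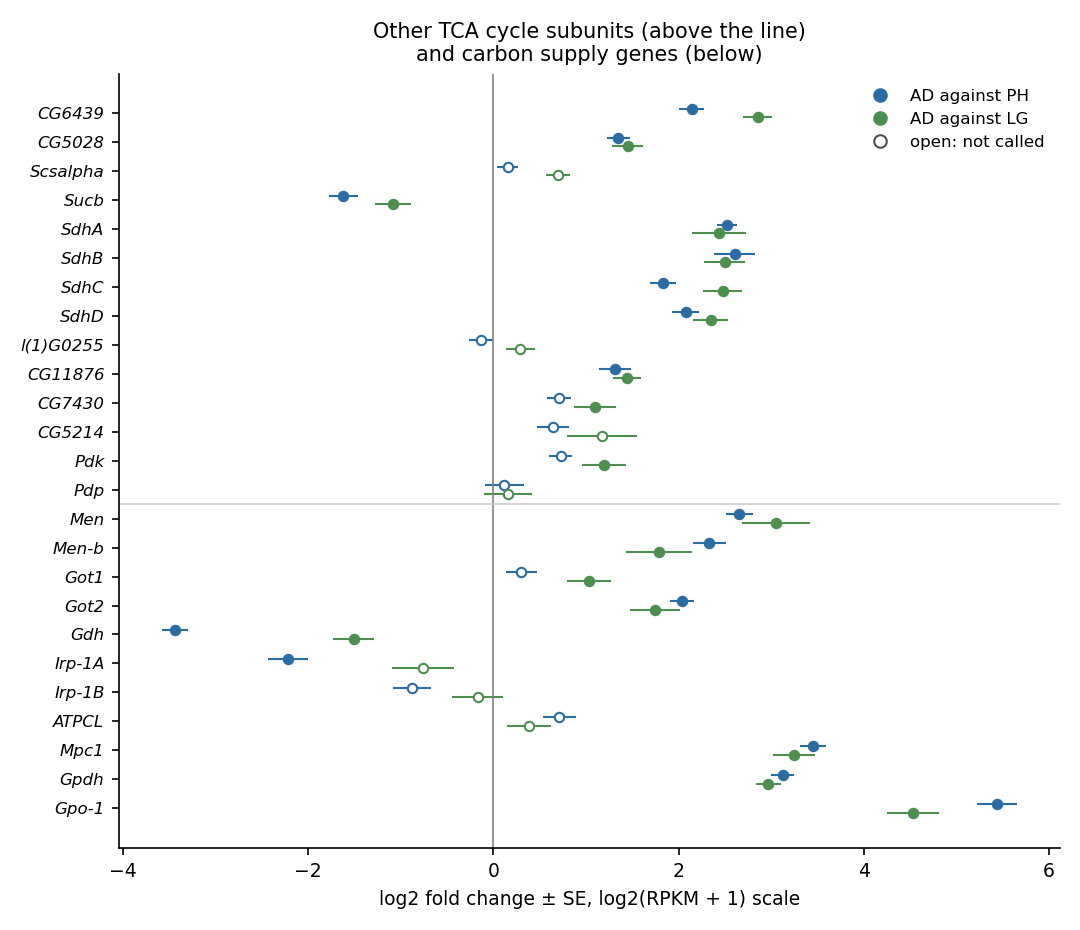
Log2 fold change ± SE on the log2(RPKM + 1) scale (limma) of AD against PH and AD against LG. Open points are genes that were not called. The other TCA cycle and pyruvate dehydrogenase genes lie above the grey line. Genes for carbon exchange, shuttles and iron regulatory proteins lie below it, under the heading carbon supply genes. *Sucb*, *Gdh* and *Irp-1A* are the only called genes to the left of 0, at -1.62, -3.44 and -2.22 against PH.

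The members resembled each other to different degrees over the 9 samples. For 8 of them, Pearson's r between the log2(RPKM + 1) of the gene and the mean of the other 9 genes was 0.91 to 0.99, and it was 0.67 for *Mdh1* and 0.07 for *Idh*. These values are descriptions, since the 9 points fall into the 3 groups and share their libraries. Among 3106 other genes with a mean RPKM of at least 10, the 5 with the pattern closest to the mean of the 10 members were *CG5010* (r = 0.997), *ATPsyngamma*, the gamma subunit of ATP synthase, FBgn0031912, for which the table gives no symbol, *Cyp6a13*, of the cytochrome P450 family, and *CG17574* (r = 0.995 for the last 4). Their mean RPKM was 153, 85.3, 83.1, 91.4 and 320 in the AD samples, 40.8, 29.5, 15.7, 3.80 and 9.60 in those of PH and 30.1, 24.5, 11.1, 1.98 and 6.82 in those of LG.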

How the data were processed

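RNA sequencing of 3 AD, 3 PH and 3 LG samples was re-analysed from a single deposited table of RPKM values for 17490 genes, in which all 9 columns were used and none lacked a sample. According to the study's methods, the authors used Trimmomatic for trimming, HISAT2 for alignment to dm6, HTSeq for the read count of each gene, Cufflinks for the RPKM values and DESeq2 for their group comparisons. The submitters' processing notes name Trimmomatic 0.32, HISAT2 2.1.0, TopHat, HTSeq 0.5.4p5, Cufflinks 2.2.1 and DESeq2 1.2.8 and the builds BDGP5 and dm6. The table writes decimals with a comma and holds no coordinates, test results or counts. With exon lengths of the Ensembl annotation BDGP6.54, available for 17301 genes, 97.8 to 98.0% of the values came out as whole reads (within 0.02), and the library totals behind them, divided by median-of-ratios size factors, were 4326230 to 4340990, so the deposited values carry that scaling. These recovered reads served for depth and for alternatives only.

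For each pair of groups, log2(RPKM + 1) of its 6 samples was fitted by limma 3.58.1 (R 4.3.3) with lmFit and trended eBayes, keeping genes whose RPKM exceeded 1 in 3 or more samples. Tests were two-sided with Benjamini-Hochberg adjustment over all genes tested, and a call required an adjusted p below 0.01 together with a log2 fold change beyond 1 in either direction. *PCB* and the other members all passed the filter in each pair. Within-sample log2 ratios were compared with exact permutation tests. These tests and the other steps ran in Python 3.11.15 (numpy 2.4.6, pandas 2.3.3, matplotlib 3.10.9). The limma fit was tested on simulated data.

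The members and the gene lists were chosen with earlier results of these data known. All 10 members were named, along with, per list, the 3 called genes that differed most between AD and PH, those called lower in AD, genes overlapping a member and the 5 genes most like the members' mean. Of 110 listed genes 107 were found. Alternatives were the pseudocount (0.1, 5), the filter on low values (none, RPKM above 5), quantile normalization, scaling to the total of recovered reads or to those outside rRNA genes, voom, a joint fit of all 9 samples, array weights, a replicate block and leaving out each replicate, and for the ratios a pseudocount of 1 and leaving out each replicate. No sequences or reads were used here.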

Additional observations from a re-analysis of the deposited data

Results flagged for a closer look

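The change of *Mdh1* in adult hemocytes differed by larval group. The log2 fold change of AD was 0.17 against PH and 1.18 against LG, and the difference between these values is that of PH against LG, 1.0 ± 0.17 (limma, Benjamini-Hochberg adjusted p = 0.0035), with all 3 PH samples above all 3 LG samples. *Idh* showed a difference of the same kind that did not reach the required fold change, with -0.54 against PH, 0.38 against LG and 0.92 ± 0.18 between PH and LG (limma, adjusted p = 0.0069).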

How the results depend on the processing

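Of the 30 member changes (10 genes in 3 pairs), 22 kept their direction and their side of the threshold in every alternative, among them all those of *kdn*, *l(1)G0156* and *Mdh2*. The number of members called stayed at 7 to 8 for AD against PH and 8 to 9 for AD against LG. For PH against LG it was 1 as reported and 0 with a pseudocount of 5, quantile normalization, the total of recovered reads, the reads outside rRNA genes, voom and array weights, and 0 to 1 when single replicates were left out. *Mdh1* in that pair ranged from 0.63 (total of recovered reads) to 1.13. Values of PH against LG near 0 changed sign. With the total of recovered reads, *Acon* was at -0.074, *Nc73EF* at -0.22 and *l(1)G0334* at -0.082. *Nc73EF* was at -0.056 with the reads outside rRNA genes, -0.055 with array weights and -0.064 (without PH replicate 3) to 0.34 (without PH replicate 1) with single samples left out, and *PCB* at 0.0071 with array weights, 0.05 without PH replicate 3 and 0.24 without LG replicate 1. The cause was not tested. The within-sample ratios kept their direction with a pseudocount of 1 and without any single replicate. The filter at RPKM above 5 gave no value of *PCB* for PH against LG.

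Relative to the deposited scaling, the median log2 fold change of all genes shifted by -0.22 (AD against PH) and -0.24 (AD against LG) with quantile normalization, by 0.10, -0.23 and -0.33 (PH against LG) with the total of recovered reads, and by -0.12, -0.30 and -0.19 with the reads outside rRNA genes. Counts over all genes changed more than those of the members. A pseudocount of 5 called 1073 genes higher and 638 lower in AD than in PH, in place of 1773 and 1071, and 1044 and 439 against LG, in place of 1553 and 805. Leaving out an AD replicate gave 1050 to 1103 higher genes against PH and 758 to 798 against LG (516 to 584 lower). Genes lower in AD than in LG numbered 1324 with the reads outside rRNA genes and 415 without LG replicate 3. For PH against LG, with 541 higher and 466 lower as reported, a pseudocount of 5 called 363 and 252, no filter 389 and 296, the total of recovered reads 320 and 732, array weights 771 and 761, and fits without a PH replicate as few as 217 and 214. Without LG replicate 1 they were 430 and 263, and without LG replicate 3 291 and 166. With fewer samples, the same filter also left fewer genes to test.

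Same-numbered samples did not deviate together (r from -0.11 to 0.05 between deviations from the group means). Differently numbered samples gave r from -0.13 to 0.11. Deviations from a mean of 3 samples are tied to each other, so these values cannot show whether the numbers pair the samples. A replicate block called 8, 9 and 1 members in the 3 pairs. Depth limited the larval values of *PCB* most, at 13 to 91 reads per sample.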
